A study of Mus musculus with 8 samples.

Results

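The primary cilium is a single, non-motile protrusion of the cell surface, built on a centriole and closed off from the cytoplasm by a gate called the transition zone. Intraflagellar transport (IFT) carries cargo along its microtubules, outward with the IFT-B complex and kinesin-2 and back with the IFT-A complex and dynein-2, and the BBSome moves membrane proteins through the gate. In vertebrates the Hedgehog pathway runs through this organelle, with Smo and the Gli factors passing through it, and retinal progenitors, like most dividing neural progenitors, carry a primary cilium at their ventricular surface. The genes described here are 48 such genes of 28432 in the deposited count table. They were chosen by name for their role in IFT, the BBSome, the transition zone, the basal body or ciliary Hedgehog regulation, with earlier results of these data known. All 48 were found in the table and passed the filter on low counts. They lie on 18 chromosomes and are described in the *Lhx2* CKO retina, where the question was whether the machinery that houses Hedgehog signaling changed along with the loss of this LIM-homeodomain transcription factor.

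RNA was taken at E15.5, after tamoxifen at E11.5, from 4 CKO embryos (*Lhx2* flox/KO) and 4 control embryos (*Lhx2* flox/+), with both retinas of an embryo as 1 sample. Every embryo carried *Hes1*CreERT2 in the heterozygous state, so Cre acts in cells that express *Hes1*, mainly retinal progenitor cells (RPCs), and the floxed *Lhx2* allele is open to deletion in controls as well, which keep a wild-type copy. The study's breeding scheme also places the tdTomato reporter *Rosa26*ai14 in all embryos. Values are reads per gene, with 13955259 to 19099937 reads per CKO sample and 13143587 to 15063867 per control sample. Normalized counts are these reads divided by a size factor of the sample (the median ratio to all samples), log2FC is CKO over control, and values are means ± SD over 4 samples per genotype. A gene rose or fell where edgeR's quasi-likelihood test gave a Benjamini-Hochberg adjusted p below 0.001 over all 13891 genes tested, the cutoff of the study, and a looser cutoff of 0.05 is given beside it because most differences here were small.

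Some libraries stood apart from the rest. The chi-square per gene between samples of a genotype was 14.0 to 20.8 for pairs with CKO replicate 1 and 12.8 to 15.3 for pairs with control replicate 3, against 3.54 to 7.58 for all other pairs, so each sample was kept as 1 replicate. Control replicate 3 was the lowest control for the members with the longest exons (*Dync2h1*, *Rpgrip1l*, *Ift80*, *Cep290* and *Wdr19*). For the shortest, *B9d2* and *Ift20*, it was the highest, though not for *B9d1*, the next in length. A link to transcript length was not tested, and it bears on the fits below without that sample. *Xist* reads (62937 in CKO replicate 1, 31307 and 33220 in control replicates 1 and 4, against 13 to 40 in the others) put females in both genotypes, but in unequal numbers. Cell makeup moved as well. Of 8 retinal progenitor markers 7 fell, with a summed level of 28099 to 35791 normalized counts in CKO samples and 77246 to 84142 in control samples. Of 7 proliferation markers 6 fell, and their sum was 26505 to 30363 in CKO and 38659 to 44491 in control samples. Of 9 retinal ganglion cell markers 4 rose and none fell, and 8 were higher at the looser cutoff. Their sum was 65670 to 69645 in CKO and 48786 to 58494 in control samples. Markers of cells around the retina were scarce, with the lens list summing to 30.2 to 64.0 normalized counts in CKO and 32.4 to 42.3 in control samples and the periocular mesenchyme list to 38.9 to 111 and 94.2 to 170. Of 5 pigment epithelium markers tested, *Pmel* fell and *Tyr*, *Tyrp1* and *Dct* were lower at an adjusted p below 0.05 (edgeR log2FC -2.05 to -0.92), and the list summed to 143 to 508 normalized counts in CKO and 267 to 451 in control samples. The 508 came from 380 counts of *Ttr* in CKO replicate 4, and without *Ttr* the sums were 123 to 160 in CKO and 249 to 442 in control samples. Of 5 endothelial markers tested only *Kdr* fell, which made up most of their sum (2597 to 3405 in CKO and 4186 to 4480 in control samples), and without it the sums overlapped, at 116 to 343 in CKO and 118 to 290 in control samples. Of 2 mesenchyme markers tested 1 fell, while no photoreceptor, amacrine and horizontal, lens, blood or macrophage marker was called at 0.001. At 0.05, 2 of 5 photoreceptor markers tested were higher (*Crx* and *Neurod1*). Of 6 amacrine and horizontal markers, 1 was higher (*Prox1*) and 1 lower (*Ptf1a*, log2FC -0.73). Over all genes tested, 4.97% fell and 3.64% rose at 0.001, and 17.4% were lower and 15.9% higher at 0.05. In whole retinas, fewer cells of a type and less RNA per cell cannot be told apart, and the part of cell makeup in the values below was not tested.

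The promoters of some of these genes carry a sequence in common that the choice of genes did not use. Regulatory factor X (RFX) proteins are the conserved transcription factors of ciliary genes and bind a palindromic element, the X-box, searched here as GTTNCC, any 3 bases, then GNNAC, on both strands of the window from 250 bases before to 50 after the RefSeq transcription start (GRCm38.p6). Of the 43 members with a promoter in that table, 10 held a match (23.3%), against 685 of all 27025 genes (2.53%). Counted by window, since a gene can have several, these were 10 of 50 member windows and 728 of all 32851. *Ift80*, *Ift81*, *Ift122*, *Dync2li1* and *Tmem67* had no promoter in the table. The 10 matches lie in the transition zone, BBSome and IFT-B genes, and the 6 sites below are shown to cover these 3 of the 8 roles, with the matched bases in capitals and 6 flanking bases on each side, 5′ to 3′ on the gene's own strand. *Tctn2* and *Ift57* are the members with a match that passed the looser cutoff, and the other 4 did not pass.
Tctn2, chr5:124598681-124598706, plus strand: ttggagGTTACCATGGCTACtggtcc
Ift57, chr16:49699201-49699226, plus strand: ggtctgGTTGCCGTGGTGACcggctg
Ahi1, chr10:20952562-20952587, plus strand: gtctgaGTTACCTAGGCAACagcggc
Mks1, chr11:87853185-87853210, plus strand: gtctccGTTGCCAGGGGAACgaggca
Bbs1, chr19:4906607-4906632, minus strand: gagctgGTTGCCAAGGCGACgcctgg
Bbs7, chr3:36613491-36613516, minus strand: gccccgGTTGCCTTGGAAACcggcca

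The match of *Bbs1* begins at base 2 of the transcript, that of *Mks1* 24 bases before the start and that of *Tctn2* 62 bases before it. The log2FC of the 10 members with a match ran from -0.47 to 0.15 with a median of 0.00414, and that of the 33 with a promoter and no match from -0.54 to 0.25 with a median of -0.08. A match is a run of letters, and neither binding nor use of these sites was measured.

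Differences in the 48 cilium genes between CKO and control retinas were small. By edgeR at 0.001 the share of members called was near or below that of all genes, while by DESeq2 the share lower was above it. Of the 48 members, 2 fell, *Ift74* and *Tulp3* (4.17%, against 4.97% of all genes tested), none rose (against 3.64%) and 46 did not pass. DESeq2, the tool of the study, also called no rise among them (against 7.57% of all genes) and put 8 lower (16.7%, against 8.78%), which added *Ift80*, *Ift122*, *Wdr35*, *Tctn2*, *Tctn3* and *Evc2*. At the looser cutoff of 0.05, edgeR placed 13 members lower (27.1%, against 17.4% of all genes) and 2 higher (4.17%, against 15.9%). The share of members lower was above the background by both tools at these cutoffs except at edgeR's 0.001, and the share higher was below it throughout. Because the genes and lists were chosen with earlier results of these data known, such shares describe them and are no independent test.

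**Figure D1:**
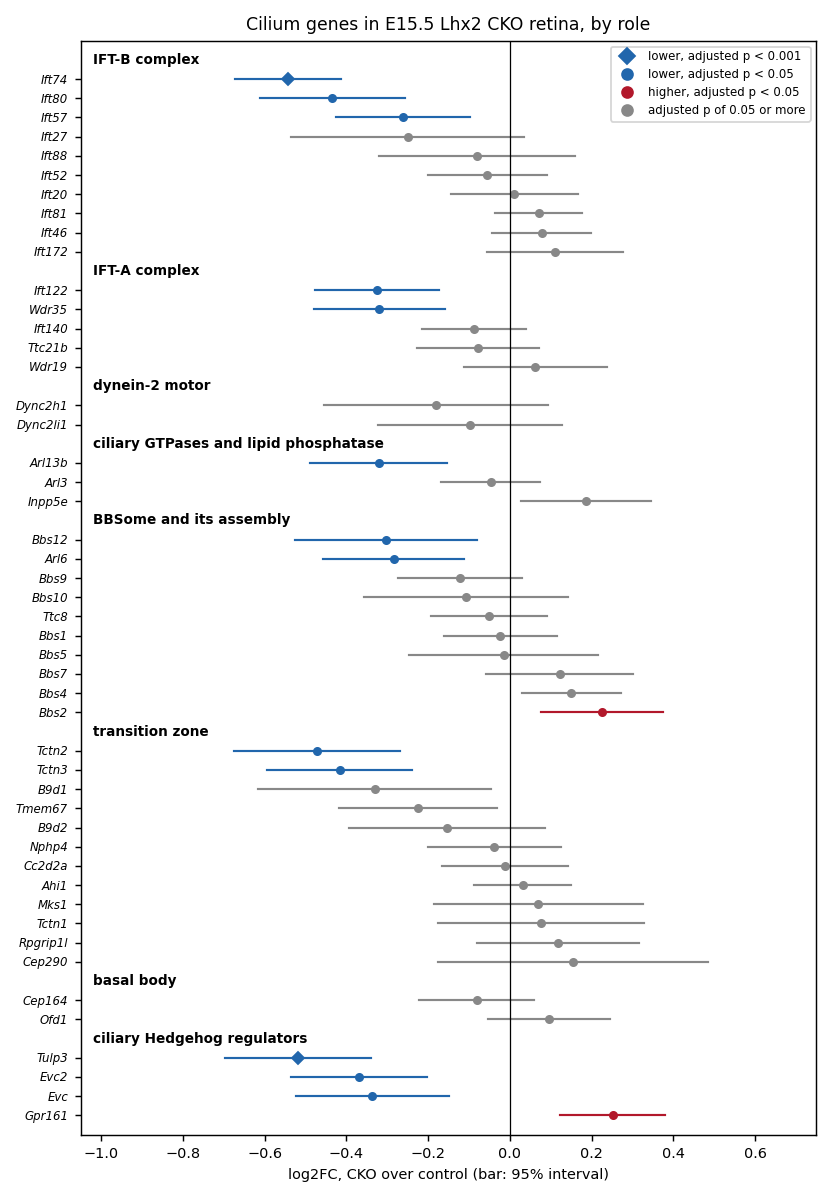
The log2FC of each of the 48 cilium genes, CKO over control (x axis), with its 95% interval as a bar, grouped by role (diamonds, adjusted p below 0.001; blue, lower and red, higher at an adjusted p below 0.05; gray, not below 0.05). *Ift74* and *Tulp3* are the 2 diamonds, and all 48 intervals lie within -1 and 1.

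The median log2FC of the members was -0.08, against 0.00529 over all genes tested, and the median size of the difference regardless of direction was 0.12 against 0.18. The lowest value was -0.54 (*Ift74*) and the highest 0.25 (*Gpr161*). Every one of the 48 intervals lay inside a 2-fold change in either direction, and 42 lay inside a 1.5-fold change. Members were measured about as deeply as the typical gene, with a median of 503 normalized counts against 499 over all genes tested. Summed over the 48, the normalized counts were 27886, 27810, 27756 and 27376 in CKO replicates 1 to 4 and 29760, 30293, 28592 and 29414 in control replicates 1 to 4. The genotypes thus did not overlap in the sum, although 32 members had a negative and 16 a positive log2FC. They did overlap in the sum of the 57 other cilium genes described below, at 43986 to 46448 in CKO and 42878 to 46715 in control samples. All 4 CKO samples lay below all 4 controls in 13 members (27.1%, against 17.9% of all genes) and above them in 4 (8.33%, against 15.9%).

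The IFT-B complex was uneven. It forms the trains that enter the cilium. Of its 10 subunits measured here 1 fell (10%, against 4.97% of all genes) and 9 did not pass at 0.001 (median log2FC -0.07). At 0.05, 3 were lower (30%, against 17.4%). *Ift74* (ENSMUSG00000028576, chromosome 4, 94614491 to 94693229 of GRCm38, plus strand) encodes a coiled-coil subunit that binds tubulin together with its partner Ift81. It had 808, 985, 951 and 923 normalized counts in CKO replicates 1 to 4 and 1294, 1339, 1376 and 1335 in control replicates 1 to 4. Every CKO sample lay well below every control. *Ift74* fell to 917 ± 76.7 normalized counts in CKO retinas, against 1336 ± 33.5 in controls (log2FC -0.54, SE 0.0595, edgeR adjusted p = 5.4e-05). It ranked 363 of the 13891 genes by p, and its call held in all 17 alternative fits.

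*Ift81* did not follow its partner. It had 854, 858, 837 and 853 normalized counts in CKO and 785, 829, 822 and 808 in control replicates (log2FC 0.07, 95% interval -0.04 to 0.18), so the CKO samples were the higher ones by a narrow margin. Per length of exon, *Ift74* stood at 2.08 to 2.52 times *Ift81* in CKO samples and 3.55 to 3.68 times in controls, a pair picked out after its values were seen and given without a test. *Ift80*, an IFT-B subunit mutated in human skeletal ciliopathies, was lower at the looser cutoff. Its values were 705, 731, 744 and 694 in CKO and 1042, 1000, 806 and 1038 in control replicates (log2FC -0.43, SE 0.0807, edgeR adjusted p = 0.00180). Here control replicate 3 was the lowest of the controls by far, though still above the CKO samples, and without it the adjusted p was 2.9e-05.

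*Ift57*, a peripheral subunit, was 272, 283, 310 and 319 in CKO and 359, 355, 340 and 364 in control replicates, which did not overlap (log2FC -0.26, edgeR adjusted p = 0.0194). It missed the looser cutoff without CKO replicate 2 (adjusted p = 0.0602), and some of its exon bases are shared with a gene on the other strand. The other IFT-B subunits did not pass either cutoff. *Ift27*, a small GTPase that links the trains to the BBSome, had a log2FC of -0.25 with a wide interval (-0.53 to 0.03). *Ift20*, which also sits at the Golgi, had 498 ± 4.85 normalized counts in CKO and 496 ± 46.0 in control retinas, with a log2FC of 0.01 whose sign depended on the fit. *Ift88*, the subunit most often removed to ablate cilia in mice, had 477 ± 78.3 in CKO and 507 ± 29.4 in control retinas (log2FC -0.08, 95% interval -0.32 to 0.16). *Ift46* (0.08), *Ift52* (-0.06) and *Ift172* (0.11) lay on both sides of 0 on the log2FC scale.

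The IFT-A complex returns trains to the base and brings membrane receptors in. None of its 5 subunits fell at 0.001 (against 4.97% of all genes), and 2 were lower at 0.05 (40%, against 17.4%). *Ift122*, a core subunit, had 609, 624, 615 and 610.4 normalized counts in CKO and 851, 777, 777 and 679 in control replicates (log2FC -0.33, SE 0.0692, edgeR adjusted p = 0.00398). *Wdr35*, which encodes the subunit also called IFT121, had 664, 673, 678 and 674 in CKO and 877, 932, 738 and 811 in control replicates (log2FC -0.32, SE 0.0734, edgeR adjusted p = 0.00620). In both genes the CKO samples were close together and the controls spread out, with CVs of 1.07% and 0.888% in CKO and 9.12% and 10.0% in control retinas. Without control replicate 3 the adjusted p of *Wdr35* was 5.9e-04. *Ift140* (log2FC -0.09, 95% interval -0.21 to 0.04), *Ttc21b* (-0.08, -0.23 to 0.07) and *Wdr19* (0.06, -0.11 to 0.24) did not pass.

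The dynein-2 motor, which pulls the IFT-A trains, did not pass in either subunit. Its heavy chain *Dync2h1* had 1459, 1390.5, 1400.3 and 1452 normalized counts in CKO replicates and 1546, 1914, 1166 and 1840 in controls. The controls therefore spanned all CKO values, with control replicate 3 below them and the other 3 above. The log2FC was -0.18 (edgeR adjusted p = 0.294) and became -0.31 (adjusted p = 0.00679) when control replicate 3 was left out. *Dync2li1*, the light intermediate chain, had a log2FC of -0.10 (95% interval -0.32 to 0.13).

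Among the small GTPases and the phosphatase that set the content of the ciliary membrane, *Arl13b* was lower at the looser cutoff. *Arl13b*, whose product marks the ciliary membrane and activates Arl3, had 319, 335, 325 and 328 normalized counts in CKO and 432, 383, 372 and 446 in control replicates (log2FC -0.32, SE 0.0765, edgeR adjusted p = 0.00757). No CKO sample reached the lowest control. *Arl3*, the GTPase that releases lipid-anchored cargo inside the cilium, had 1347 ± 84.6 in CKO and 1393 ± 68.4 in control retinas (log2FC -0.05, 95% interval -0.17 to 0.07). *Inpp5e*, the phosphatase that Arl13b retains in the cilium and that keeps its membrane poor in a phosphoinositide, had 722 ± 60.5 in CKO and 636 ± 23.0 in control retinas (log2FC 0.19, edgeR adjusted p = 0.0692), with 874 of its exon bases shared with *Pmpca* on the other strand.

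**Figure D2:**
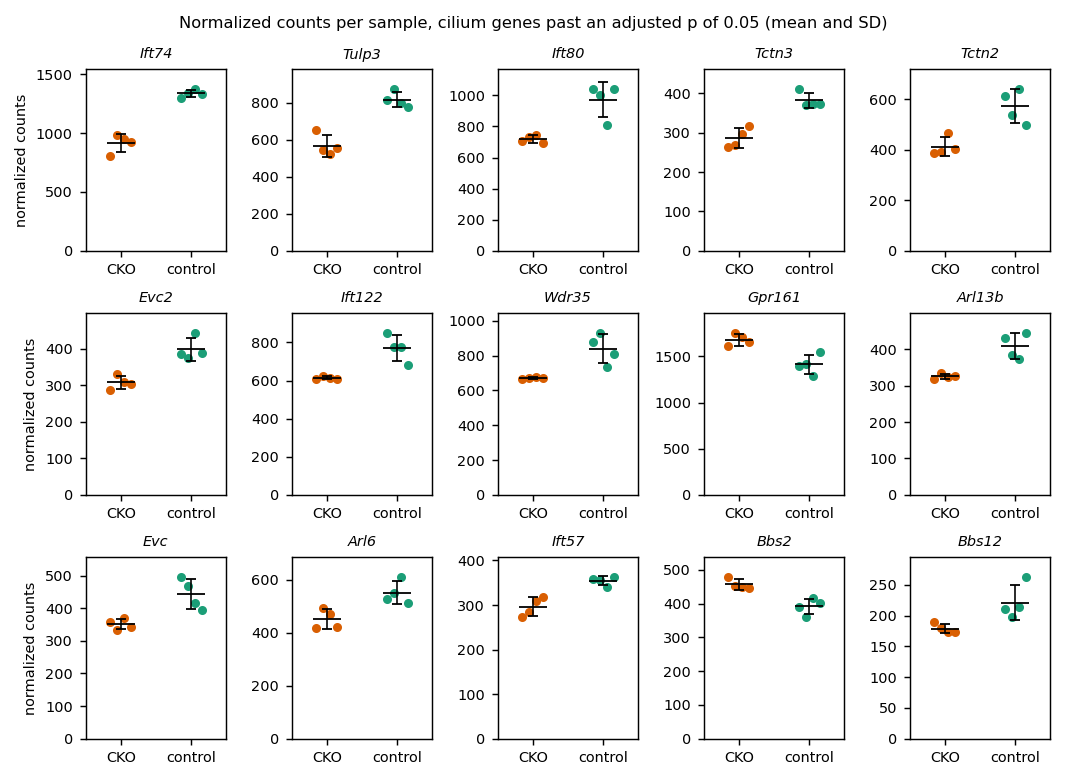
Normalized counts (y axis, from 0) in each of 4 CKO (orange) and 4 control (green) retina samples for the 15 cilium genes past an adjusted p of 0.05, in order of that p, with the mean and SD in black. In each panel the 4 CKO points lie wholly below the 4 control points, except for *Gpr161* and *Bbs2*, where they lie wholly above.

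BBSome genes showed small differences in both directions. The BBSome is a protein coat, named for Bardet-Biedl syndrome, that carries receptors out of cilia. Of the 10 genes for its subunits and assembly measured here none fell or rose at 0.001 (median log2FC -0.04). At 0.05, 2 were lower (20%, against 17.4% of all genes) and 1 higher (10%, against 15.9%). *Bbs2*, a subunit of the coat, had 480, 453, 450 and 446 normalized counts in CKO and 390, 361, 416 and 401 in control replicates (log2FC 0.23, SE 0.0679, edgeR adjusted p = 0.0244). It was the only coat subunit past the looser cutoff by edgeR, and it missed it without CKO replicate 1 (adjusted p = 0.0506), control replicate 1 (0.0557) or control replicate 2 (0.0692). *Bbs4*, another coat subunit, was higher in every CKO sample than in any control (752, 718, 742 and 703 against 677, 665, 654 and 635) but did not pass (log2FC 0.15, edgeR adjusted p = 0.0553). *Bbs7* (0.12, 95% interval -0.06 to 0.30), *Bbs9* (-0.12, -0.27 to 0.03), *Ttc8* (-0.05, -0.19 to 0.09), *Bbs1* (-0.02, -0.16 to 0.12) and *Bbs5* (-0.02, -0.25 to 0.22) had log2FC intervals that include 0.

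Both lower genes of this group act on the coat without being part of it. *Arl6*, the GTPase that recruits the BBSome to membranes, had 418, 495, 473 and 420 normalized counts in CKO and 529, 550, 612 and 513 in control replicates (log2FC -0.28, SE 0.0785, edgeR adjusted p = 0.0161), and missed the looser cutoff without CKO replicate 4 (adjusted p = 0.0521). *Bbs12*, a chaperonin-like protein that helps assemble the coat, had 190, 179, 174 and 173 in CKO and 210, 198, 213 and 263 in control replicates (log2FC -0.30, SE 0.102, edgeR adjusted p = 0.0394). Control replicate 4 was far above the other controls, and without it the adjusted p was 0.122. The call of *Bbs12* was also lost without control replicate 1 (0.0607) or CKO replicate 2, 3 or 4 (0.0877, 0.0872 and 0.0941) and by DESeq2 (0.0523). *Bbs10*, the other chaperonin-like gene, had a log2FC of -0.11 (95% interval -0.36 to 0.14).

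At the transition zone, the tectonics split. None of the 12 genes of this gate fell or rose at 0.001 (median log2FC -0.02). At 0.05, 2 were lower, a share near that of all genes (16.7%, against 17.4%). *Tctn2*, which encodes a membrane protein of the gate, had 387, 392, 467 and 403 normalized counts in CKO and 613, 536, 642 and 498 in control replicates (log2FC -0.47, SE 0.0930, edgeR adjusted p = 0.00257). *Tctn3*, its paralog, had 265, 268, 296 and 318 in CKO and 412, 371, 373 and 374 in control replicates (log2FC -0.42, SE 0.0812, edgeR adjusted p = 0.00242). In neither gene did the genotypes overlap. The third paralog, *Tctn1*, had 381, 270, 310 and 306 in CKO and 273, 324, 327 and 283 in control replicates (log2FC 0.08, 95% interval -0.17 to 0.33), and its exons share 2113 bases with genes on the other strand. CKO replicate 1 was the highest of all 8 samples for *Tctn1*, and without it the log2FC was -0.04.

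The other gate genes did not pass either cutoff. *B9d1*, a B9-domain protein of the complex, had 176 ± 25.8 normalized counts in CKO and 223 ± 29.4 in control retinas (log2FC -0.33, 95% interval -0.62 to -0.05, edgeR adjusted p = 0.0704). Its adjusted p was 0.0203 without CKO replicate 1 and 0.0398 without control replicate 4. *Tmem67*, also called meckelin, a Frizzled-like membrane protein, had 395 ± 30.7 in CKO and 462 ± 40.2 in control retinas (log2FC -0.22, 95% interval -0.42 to -0.03, edgeR adjusted p = 0.0718), with an adjusted p of 0.0229 without CKO replicate 1 and 0.0196 without control replicate 3. *Cep290*, which tethers the membrane to the axoneme and is mutated in a congenital retinal blindness in humans, varied most among the members in the CKO, from 546 to 887 in CKO samples and from 517 to 774 in controls (log2FC 0.15, 95% interval -0.18 to 0.48). Its exons share 881 bases with *4930430F08Rik* on the other strand. *B9d2* (-0.15), *Nphp4* (-0.04), *Cc2d2a* (-0.01), *Ahi1* (0.03), *Mks1* (0.07) and *Rpgrip1l* (0.12) had log2FC values whose intervals include 0. At the basal body, the same was true of *Cep164* (-0.08, 95% interval -0.22 to 0.06), a protein of the appendages that dock the centriole to the membrane, and of *Ofd1* (0.09, -0.05 to 0.24), a protein of centrioles and centriolar satellites.

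The ciliary Hedgehog regulators had the lowest median log2FC of the 8 roles, -0.35. Of these 4 genes 1 fell at 0.001 (25%, against 4.97% of all genes). At 0.05 a further 2 were lower, which made 3 (75%, against 17.4%), and 1 was higher (25%, against 15.9%). These shares rest on only 4 genes, chosen with earlier results of these data known, and are no independent test. *Tulp3* (ENSMUSG00000001521, chromosome 6, 128321161 to 128355851 of GRCm38, minus strand) encodes the adapter that, bound to the IFT-A complex, brings Gpr161 and other receptors into the cilium. It had 653, 544, 521 and 553 normalized counts in CKO replicates 1 to 4 and 812, 875, 799 and 779 in control replicates 1 to 4. CKO replicate 1 was the highest of its group and still below all controls. *Tulp3* fell to 568 ± 58.6 in CKO retinas, against 816 ± 41.4 in controls (log2FC -0.52, SE 0.0811, edgeR adjusted p = 6.0e-04). This call was lost when any 1 library other than CKO replicate 1 was left out. The adjusted p was 0.00317, 0.00248 and 0.00305 without CKO replicate 2, 3 or 4 and 0.00279, 0.00343, 0.00104 and 0.00204 without control replicate 1, 2, 3 or 4. The log2FC ran only from -0.60 to -0.47 over the alternatives.

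*Gpr161*, a receptor in the ciliary membrane that raises cAMP and so holds the Hedgehog pathway off, went the other way from the adapter that carries it. It had 1609, 1757, 1711 and 1655 normalized counts in CKO and 1397, 1423, 1294 and 1546 in control replicates (log2FC 0.25, SE 0.0587, edgeR adjusted p = 0.00676). The lowest CKO sample exceeded the highest control. *Evc* and *Evc2* encode partner membrane proteins that sit above the transition zone and pass the Hedgehog signal on from Smo. They lie head to head on chromosome 5 with 1604 bases between them (*Evc*, 37289098 to 37336894, minus strand, and *Evc2*, 37338499 to 37425055, plus strand). *Evc2* had 288, 330, 310 and 304 in CKO and 387, 375, 444 and 389 in control replicates (log2FC -0.37, SE 0.0757, edgeR adjusted p = 0.00324). *Evc* had 358, 333, 370 and 344 in CKO and 496, 467, 417 and 396 in control replicates (log2FC -0.34, SE 0.0858, edgeR adjusted p = 0.0108). Both pairs of groups were apart in level, while the ratio of *Evc* to *Evc2* per length of exon ran from 0.766 to 0.942 in CKO and from 0.711 to 0.973 in control samples, which overlapped.

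**Figure D3:**
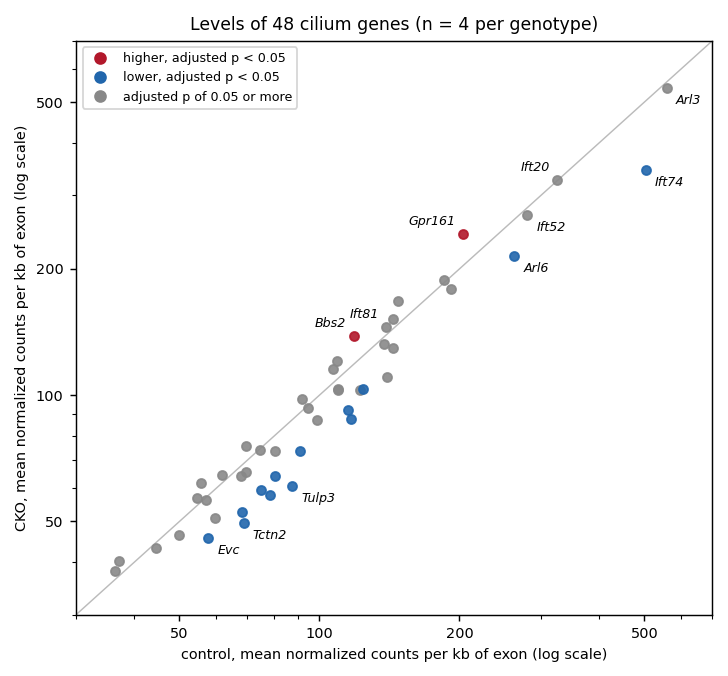
Mean normalized counts per kilobase of exon of each of the 48 cilium genes in CKO (y axis) and control retinas (x axis), n = 4 each, both on log scales, with the line of equal levels in gray (blue, lower and red, higher at an adjusted p below 0.05). Levels run from 38.2 to 541 in CKO and 36.3 to 559 in control retinas, and the points keep close to the line.

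Levels differed far more between cilium genes than between genotypes. Per kilobase of merged annotated exons, the members ran over a 15.4-fold range in controls, while no member differed by 2-fold between genotypes. *Arl3* was the highest in both, at 541 normalized counts per kilobase in CKO and 559 in control retinas. *Ift74* came next, with 345 and 503, followed by *Ift20* with 327 and 325, *Ift52* with 269 and 280 and *Arl6* with 215 and 263, except that in the CKO *Gpr161*, with 242 and 203, stood above *Arl6*. The lowest were *Tctn1*, at 38.2 in CKO and 36.3 in controls, and *Rpgrip1l*, at 40.2 and 37.1. Their exon union, which counts every annotated isoform, is long, so these figures are lower than those of a single transcript would be. Replicates were close to each other, with a median CV over the members of 6.32% in CKO and 7.45% in control samples, and *Dync2h1* varied most in controls (21.0%).

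Cilium genes outside the 48 were read from a second list. Of 55 other structural and trafficking genes tested (57 listed), 2 fell (3.64%, against 4.97% of all genes), 1 rose (1.82%, against 3.64%) and 52 did not pass at 0.001, with a median log2FC of -0.12. At 0.05, 13 were lower (23.6%, against 17.4%) and 4 higher (7.27%, against 15.9%). *Tmem107*, a small membrane protein of the transition zone, had 226, 257, 256 and 237 normalized counts in CKO and 393, 413, 464 and 369.6 in control replicates, and fell with a log2FC of -0.75 (SE 0.0856, edgeR adjusted p = 7.4e-05). *Cep89*, a protein of the centriolar appendages, had 530, 544, 569 and 604 in CKO and 746, 755, 787 and 769.6 in control replicates, and fell with a log2FC of -0.44 (edgeR adjusted p = 1.8e-04). *Cep120*, which is needed to build centrioles, had 2042, 2234, 2211 and 2102 in CKO and 1669, 1736, 1707 and 1813 in control replicates, and rose with a log2FC of 0.31 (edgeR adjusted p = 5.0e-04). In each of these 3 genes the genotypes did not overlap. The ciliary Hedgehog regulators of this second list passed neither cutoff (edgeR adjusted p of 0.0972 or more). They were *Kif7* (log2FC -0.23), *Sufu* (-0.03), *Iqce* (-0.17), *Efcab7* (-0.29) and *Ankmy2* (0.08).

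**Figure D4:**
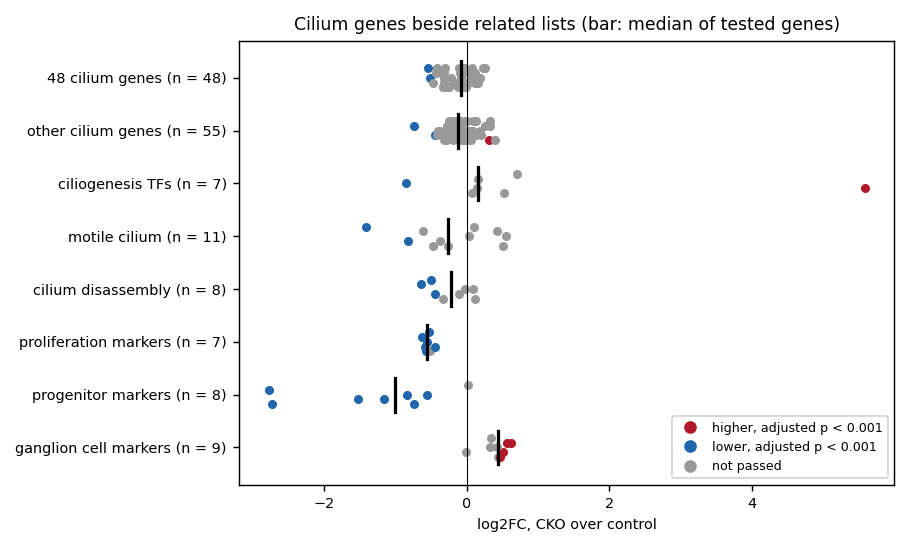
The log2FC, CKO over control (x axis), of each tested gene in 8 lists, 1 point per gene (red, higher and blue, lower at an adjusted p below 0.001; gray, not passed), with the median of each list drawn as a black bar. The point at the far right is *Rfx4*, whose controls lay below the filter on low counts, and its position and color are not read as a result. The 48 cilium genes cluster near 0 with a median of -0.08, while the progenitor markers have a median of -1.01 and the ganglion cell markers one of 0.44.

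Of 7 transcription factors of ciliogenesis tested (9 listed), *Rfx2* fell (14.3%, against 4.97% of all genes) and 5 did not pass at 0.001. The remaining gene, *Rfx4*, is not counted as a call. *Rfx4*, an RFX family gene of the developing brain, had 184, 151, 125 and 163 normalized counts in CKO and 1.01, 4.17, 4.57 and 3.04 in control replicates. All its controls lay below the filter of 20 normalized counts, so it was tested only through its CKO values. No fold change or p is given for it in the text. *Rfx2* had 170, 202, 225 and 204 in CKO and 352, 330.1, 388 and 373 in control replicates, and fell (log2FC -0.85, SE 0.0933, edgeR adjusted p = 5.4e-05). *Foxj1*, the regulator of motile ciliogenesis, had 135 ± 20.3 in CKO and 83.4 ± 18.2 in control retinas (log2FC 0.70, edgeR adjusted p = 0.00567), and *Rfx5*, better known from immune genes, was also past only the looser cutoff (log2FC 0.52, edgeR adjusted p = 0.0198). *Rfx3*, the family member with the best known role in cilia, had 1360 ± 123 in CKO and 1234 ± 152 in control retinas (log2FC 0.14, edgeR adjusted p = 0.274), and neither *Rfx1* (0.16) nor *Rfx7* (0.07) passed. *Gmnc* and *Mcidas*, which start multiciliated cell formation, were too low to test, at 0.646 and 3.87 normalized counts in CKO and 0 and 1.55 in control retinas.

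Of 19 listed genes of motile cilia, 11 passed the filter on low counts and 2 of these fell (18.2%, against 4.97% of all genes). They were *Rsph1*, a radial spoke gene, and *Tekt1*, a tektin gene, with log2FC values of -1.41 and -0.83 (edgeR adjusted p = 1.1e-04 and 2.6e-04). *Rsph1* had 46.9, 71.5, 84.2 and 86.4 normalized counts in CKO and 169, 202, 220.3 and 172 in control replicates. *Tekt1* had 89.0, 78.4, 84.2 and 92.8 in CKO and 141, 141, 178 and 153 in control replicates. At 0.05, 3 motile genes were lower (27.3%, against 17.4% of all genes), which added *Rsph9* (log2FC -0.62, edgeR adjusted p = 0.00115). In the other direction 1 was higher (9.09%, against 15.9%), *Ccdc40* (0.43, edgeR adjusted p = 0.00409). Of 8 genes known to promote or regulate cilium disassembly, 3 fell (37.5%, against 4.97% of all genes), all of them also mitotic kinases. *Nek2* fell to 857 ± 53.6 in CKO retinas, against 1336 ± 60.3 in controls (log2FC -0.64, edgeR adjusted p = 1.5e-05), *Aurka* to 658 ± 38.9 against 936 ± 57.7 (-0.51, adjusted p = 1.1e-04) and *Plk1* to 941 ± 86.8 against 1286 ± 106 (-0.45, adjusted p = 9.3e-04). These falls stood beside those of the proliferation markers, whose median log2FC was -0.56. Ciliary membrane proteins of neurons (*Adcy3*, *Sstr3*, *Mchr1*, *Htr6*, *Pkd1* and *Pkd2*) gave no call among the 3 of 6 that could be tested.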

How the data were processed

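Poly(A) RNA from 8 samples was sequenced in 50 cycle single-end reads from unstranded libraries. The authors aligned reads to mm10 with TopHat2 and deposited raw counts of reads per gene from HTSeq, with no strand setting or annotation stated. Counts are not normalized or pooled, and none of the 28432 genes listed is at 0 in every sample. Litters and collection days are not given per sample. Following the filter that the study describes, a gene entered the tests if 3 or more samples reached 20 normalized counts. The study reports fewer features examined than the 13891 tested here, so the tested sets are not the same.

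Counts were tested in R 4.3.3 with edgeR 4.0.16 (glmQLFit, TMM scaling, genotype only, Benjamini-Hochberg over 13891 genes), after a test on simulated data. Positions, exon lengths and overlaps come from GENCODE M21 (GRCm38, the assembly of mm10), in which 28232 gene IDs were found. The text names all 48 members, the ciliogenesis factors and the other ciliary Hedgehog regulators. Of the remaining lists it names up to 5 called genes each, with some others beside them. The members and lists were chosen with earlier results of these data known. *Lim2* of the lens list was not in the table. Alternatives were DESeq2 1.42.0 at default settings, limma voom 3.58.1, other scalings, no filter or filterByExpr, embryo sex or 1 surrogate variable (sva 3.50.0) as a covariate, a replicate block, and fits on 7 samples with each one omitted in turn.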

Additional observations from a re-analysis of the deposited data

Results flagged for a closer look

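In 98 groups of 4 samples (each member, and the members' sum, in each genotype), Dixon's test at 95% set 1 sample apart in 7, and chance alone sets about 1 in 20 apart. In the CKO, these were replicate 3 for *Ift20* (505 normalized counts) and *Ahi1* (1250.4, the lowest) and replicate 1 for *Ift46* (922) and *Arl3* (1222), both the lowest of their group. In controls, they were replicate 3 for *Ift20* (564), replicate 1 for *Tctn3* (412), both the highest, and replicate 4 for *Cep164* (659), the lowest. Only *Tctn3* among these genes passed the looser cutoff, and its highest control is on the side away from the CKO. Causes were not tested.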

How the results depend on the processing

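Over 48 members and 17 alternatives, 43 members kept the sign of their log2FC throughout, *Ift74* passed in all 17 fits and *Tulp3* in 9. The count of members lower at 0.001, 2 as reported, was 8 by DESeq2, 4 with no filter and 1 with the replicate number as a block, and 1 to 3 with a sample left out. The count higher at 0.001 stayed at 0 in every fit run, while at 0.05 the count higher, 2 as reported, was 1 with no filter, 1 with the replicate block and 1 to 3 with a sample left out, and the count lower ran from 11 to 15. The median log2FC stayed between -0.11 (library totals) and -0.05. With the block, *Tulp3* had a log2FC of -0.52 (adjusted p = 0.00148). The numbers do not pair the samples, since 1 of 4 same-numbered pairs had deviations correlated above 0.1 (r = -0.153 to 0.129). Signs changed only near 0. *Ift20* had -0.0162 with library totals, -0.00149 with sex and -4.5e-05 with 1 surrogate variable, *Cc2d2a* 0.00911 with sex and 0.00693 with 1 surrogate variable. With a sample left out, the ranges were -0.00908 to 0.0774 for *Ift20*, -0.0554 to 0.0122 for *Bbs1*, -0.0743 to 0.0560 for *Bbs5*, -0.0615 to 0.0204 for *Cc2d2a* and -0.0356 to 0.157 for *Tctn1*. The causes were not tested. With 4 samples per genotype, intervals on the log2FC reached past a 1.5-fold change in 6 of 48 members, each on the lower side. These were *Ift74*, *Tulp3*, *Tctn2*, *Ift80*, *Tctn3* and *B9d1*, with log2FC values from -0.54 to -0.33.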
